A study of Homo sapiens with 30 samples.

Results

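The comparison set 9 libraries of HT29 cells treated with the low dose of 4 herbal extracts against 3 libraries of vehicle-treated cells, 12 of the 30 libraries of the series. Members were taken from the sample titles alone, as every library titled low dose and every vehicle library. HT29 is an established epithelial line from a human colorectal adenocarcinoma. The extracts were Soshiho-tang (n = 3), Yijin-tang (n = 3), Okbyeongpung-san (n = 2) and Soyo-san (1 library), multi-herb formulas of Korean medicine extracted in 70% ethanol. Each was given at 20 µg/mL for 24 h. Vehicle was DMSO, at 0.1% per the labels but 2% in the design text, and which was used is not known. The design text also says that extracts toxic under the top dose were diluted from their IC20, so the labelled dose may not be the true one. Every group, vehicle included, was the same line in the same medium. The names of the 3 vehicle libraries place them in a set of their own, so any difference between low dose and vehicle is shared with that set, and treatment and set cannot be told apart. In the titles the Soyo-san library and Okbyeongpung-san replicate 3 carry a batch D, and the other 10 libraries a batch E. Whether replicates came from separate cultures is not given, and p-values then cover the spread among these libraries alone, which may be technical.

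Pooling the low doses asks which genes differ from vehicle over all 4 extracts together. Several gene programs of cultured epithelial cells answer quickly to handling and medium and are read here. Heat shock genes are driven by the factor HSF1 when proteins unfold, and their chaperones bind unfolded chains. Immediate early genes such as MYC and JUN are transcribed within minutes of growth factor or stress signals. Sterol genes are driven by SREBP2 when membrane cholesterol is low, and interferon response genes by STAT and IRF factors downstream of RNA sensors.

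Vehicle libraries held 25.4 M to 36.2 M counts and low-dose libraries 19.8 M to 27 M. Of 15 colon epithelial markers 14 exceeded 1 CPM (counts per 1 M counts), with sums of 12590 to 13717 CPM in vehicle and 11722 to 12469 CPM at low dose. Of 11 fibroblast markers 10 stayed under 1 CPM (sums of 3.38 to 6.97 and 2.85 to 4.21 CPM). Leukocyte markers summed to 1422 to 1545 CPM in vehicle and 1546 to 1671 CPM at low dose, with CD14, CD74, ITGAM and LYZ over 1 CPM and CD3E at 0. Nearly all of this was LYZ, with means of 1509 CPM in vehicle and 1584 CPM at low dose. The means of CD14, CD74 and ITGAM were 1.8 to 4.2 CPM. Endothelial markers summed to 1.85 to 2.18 and 1.81 to 3.11 CPM with KDR at 0, and of 6 liver and lung markers only SERPINA1 exceeded 1 CPM, with AFP and APOB at 0. The vehicle libraries differed among themselves as much as from low dose: chi-square per degree of freedom was 11 to 20.7 within the 3 vehicle pairs, 8 to 27.5 between vehicle and low-dose libraries, 2.44 to 5.99 within low-dose pairs of a formula and 1.87 to 7.75 between formulas. Vehicle replicate 2 was nearer to 8 of the 9 low-dose libraries than to either other vehicle library. On the first principal component, which held 17.7% of the variance, vehicle libraries lay at -28.9 to -17 and low-dose libraries at 4.34 to 11.3.

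Cells at the low dose had higher RNA of the splicing kinase gene CLK1, of 10 of 25 cholesterol synthesis genes and of 10 of 24 interferon response genes. They had lower RNA of 13 of 18 heat shock genes, 10 of 22 immediate early genes and 11 of 22 endoplasmic reticulum chaperone genes. Of 15556 genes tested, 3942 (25.3%) differed from vehicle at an adjusted p below 0.05, the threshold used throughout. Of these, 1967 (12.6%) were higher and 1975 (12.7%) lower. Most differences were small: 57 genes (0.366%) passed with at least a 2-fold difference, 36 higher and 21 lower, and the median size of a called difference was 0.21 on the log2 scale. In 2278 genes (14.6%) the 9 low-dose and 3 vehicle libraries did not overlap, with low dose above in 1282 (8.24%) and below in 996 (6.4%). The median log2 fold change over all genes was -0.0054. Without vehicle replicate 3 the count of called genes was 2504, and within batch E alone, with 7 low-dose and 3 vehicle libraries, it was 3289. Batch D held 2 low-dose libraries and no vehicle.

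**Figure D1:**
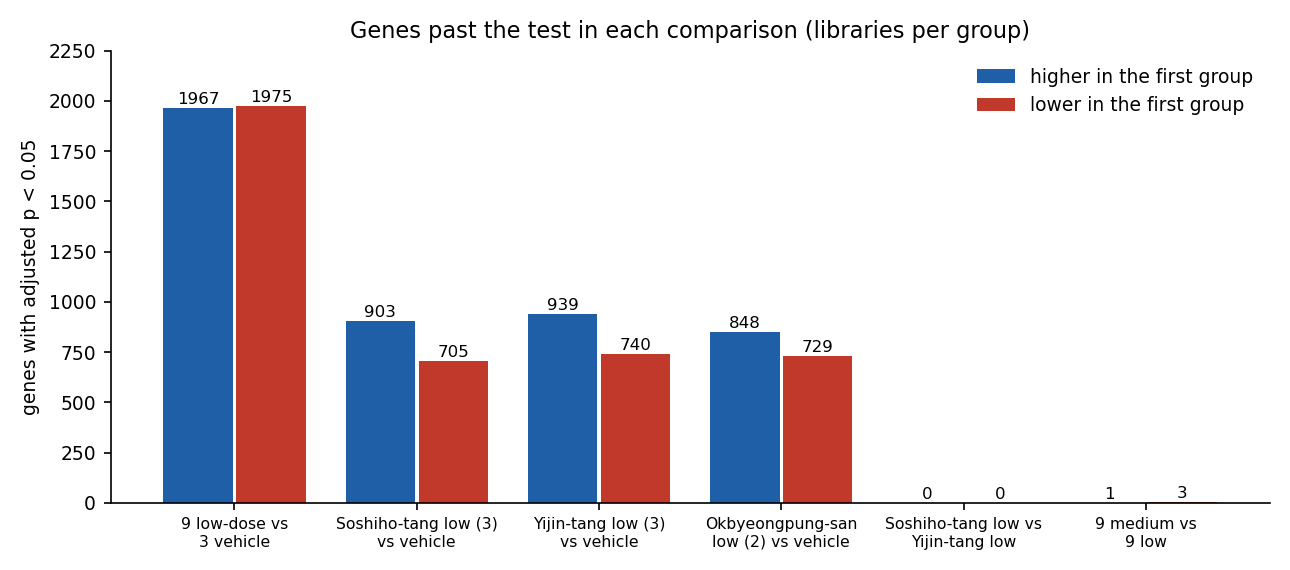
Number of genes past the test (vertical axis) in each comparison, split into those higher (blue) and lower (red) in the group named first, with the libraries per group in brackets. Against vehicle the pooled low dose gave 1967 and 1975 genes and each formula between 705 and 939 in a direction, while 2 formulas against each other gave 0 and the medium against the low dose gave 1 and 3.

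The differences followed the base composition of the transcripts. Genes called higher had a median GC content of 40.3% and a median longest transcript of 5390 bases, and genes called lower 57.8% and 2698 bases, against 48.7% and 3027 bases in genes not called. Over 13212 genes with a mean above 1 CPM, the lowest decile by GC content had 44.8% called higher and 0.681% lower, and the highest decile 0.378% higher and 39.9% lower. Across genes, which are not independent replicates, Spearman's rho of the log2 fold change was -0.49 with GC content and 0.26 with length. For medium against low dose rho with GC content was 0.0039, and for Soshiho-tang against Yijin-tang 0.022.

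The slope of each library's log2 level on GC content, relative to the mean of the 12 libraries, was 0.159, 0.0019 and 0.0715 per 10 points in vehicle replicates 1, 2 and 3. At low dose it was -0.046 to -0.0039 (median -0.033). All 3 vehicle libraries lay above all 9 low-dose libraries, but vehicle replicate 2 lay closer to the low-dose libraries than to the other vehicle libraries. The mean difference was -0.103. A two-sided exact permutation test gave p = 0.00909, the smallest that 220 splits allow with p-values counted in both tails. After Benjamini-Hochberg adjustment over 5 library measures it was 0.0152. Among these measures only the mitochondrial share was planned. The GC slope was added after seeing the data, so its p-value is not that of a test set beforehand. Slopes on length per doubling were -0.055 to -0.03 in vehicle and 0.0049 to 0.02 at low dose. Library totals (mean difference -6.25 M counts, adjusted p = 0.0227) and the share of lincRNA counts (0.437% to 0.469% against 0.491% to 0.523%, adjusted p = 0.0152) also differed in this exact permutation family. With the GC and length trend of each library removed, a setting added after seeing the data, 2222 of 15456 genes passed (14.4%), 1003 higher (6.49%) and 1219 lower (7.89%). Of 3929 called genes with a GC value, 1492 were still called in the same direction and 187 turned in sign. The counts with this trend removed are given beside the groups below.

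**Figure D2:**
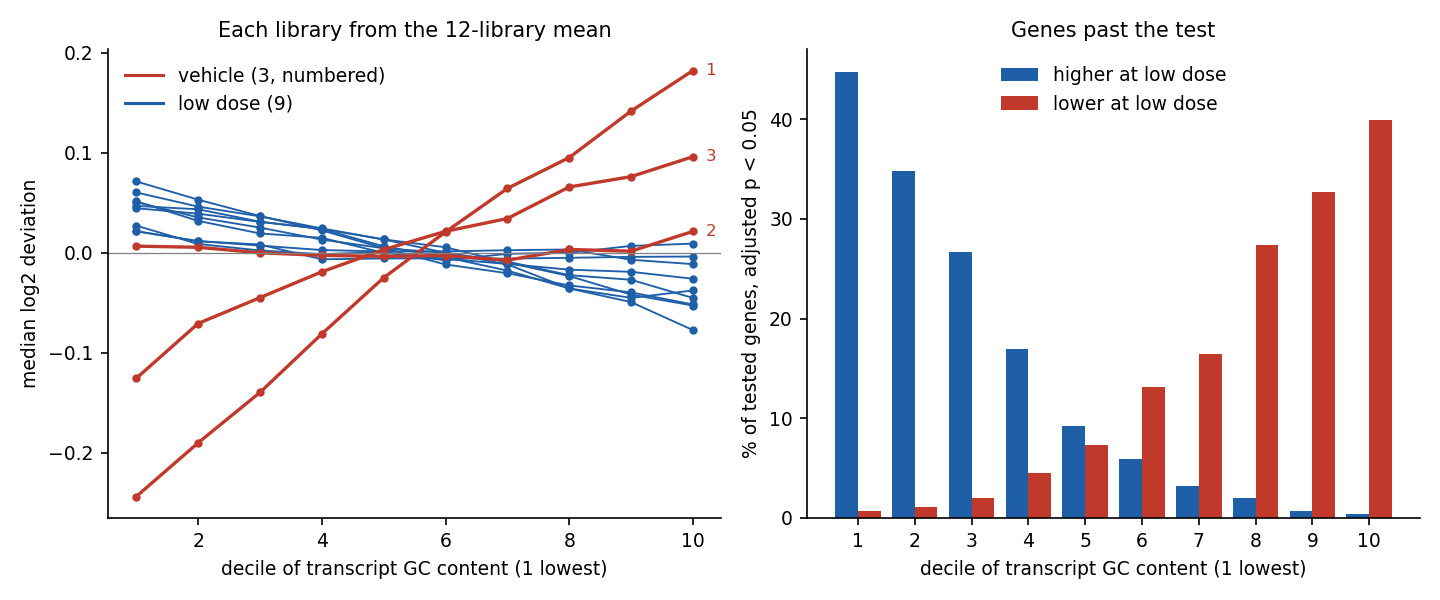
Left, median log2 deviation of genes from the 12-library mean (vertical axis) by decile of transcript GC content (horizontal axis), with 1 line per library, vehicle in red with replicate numbers and low dose in blue. Right, percentage of genes in each decile called higher (blue) or lower (red) at low dose, which goes from 44.8% higher in the lowest decile to 39.9% lower in the highest decile.

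CLK1, a kinase that phosphorylates the SR proteins of splicing, was at 30.1, 34.8 and 32.4 CPM in the vehicle libraries and at 54.5 to 62.8 CPM (median 57.7) in the low-dose libraries. All 9 low-dose libraries lay above all vehicle libraries with a wide gap, and the log2 fold change was 0.84 ± 0.053 (SE, adjusted p = 5.4e-09; 0.69 with the GC and length trend removed). CLK1 (ENSG00000013441) lies on chromosome 2 from 200853009 to 200864744 in GRCh38. It stayed at 52.4 to 63.7 CPM in the 9 medium-dose and 49.9 to 63 CPM in the 9 high-dose libraries. Its relative CLK4 was at 8.52, 10.1 and 10.2 CPM in vehicle and 11.7 to 14.4 CPM (median 13.8) at low dose, a rise of 0.51 ± 0.068. CLK2 and CLK3 were at 0.011 ± 0.072 and 0.026 ± 0.044 and did not pass. Of 34 splicing factor and CLK genes, 6 rose, 5 fell and 23 did not pass, with a median of 0.022. These counts were near the shares over all genes, 12.6% higher and 12.7% lower. The fallers included SNRNP70, a U1 particle protein (-0.29 ± 0.037), and TRA2A, a splicing activator (-0.16 ± 0.044), whose call was lost without vehicle replicate 2 (-0.1) or 3 (-0.14). With the trend removed 5 rose and 9 fell.

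Among the 15 largest rises that the naming rule gave, KLHL24, an adaptor of a ubiquitin ligase, was at 13.2, 14.3 and 13 CPM in vehicle and 20.2 to 22.4 CPM (median 21) at low dose (0.64 ± 0.05). At the high dose it was back at 12.9 to 17.2 CPM, which overlaps vehicle. ABCA1, the pump that exports cholesterol to lipoproteins, was at 4.19, 4.59 and 4.44 CPM in vehicle and 5.51 to 8.21 CPM (median 7.35) at low dose (0.66 ± 0.11). The naming rule required groups that do not overlap. CREBRF, a regulator of the CREB3 factors, rose by 0.65 ± 0.067, the Src-family kinase FRK by 0.62 ± 0.065 and the double-stranded RNA sensor TLR3 by 0.63 ± 0.14. Others were ZNF699 (0.71 ± 0.15), TCP11L2 (0.70 ± 0.12), SNX16 (0.62 ± 0.10) and KLHL28 (0.61 ± 0.083). ZBED6 (0.66 ± 0.066) lies within another gene, ANKRD10-IT1 (0.64 ± 0.12) within an intron, and ZNF436-AS1 (0.77 ± 0.14) and PDK1-AS1 (0.66 ± 0.14) are antisense to genes, so their reads are uncertain. GCOM1 (0.90 ± 0.18) is a readthrough locus and is uncertain as well.

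**Figure D3:**
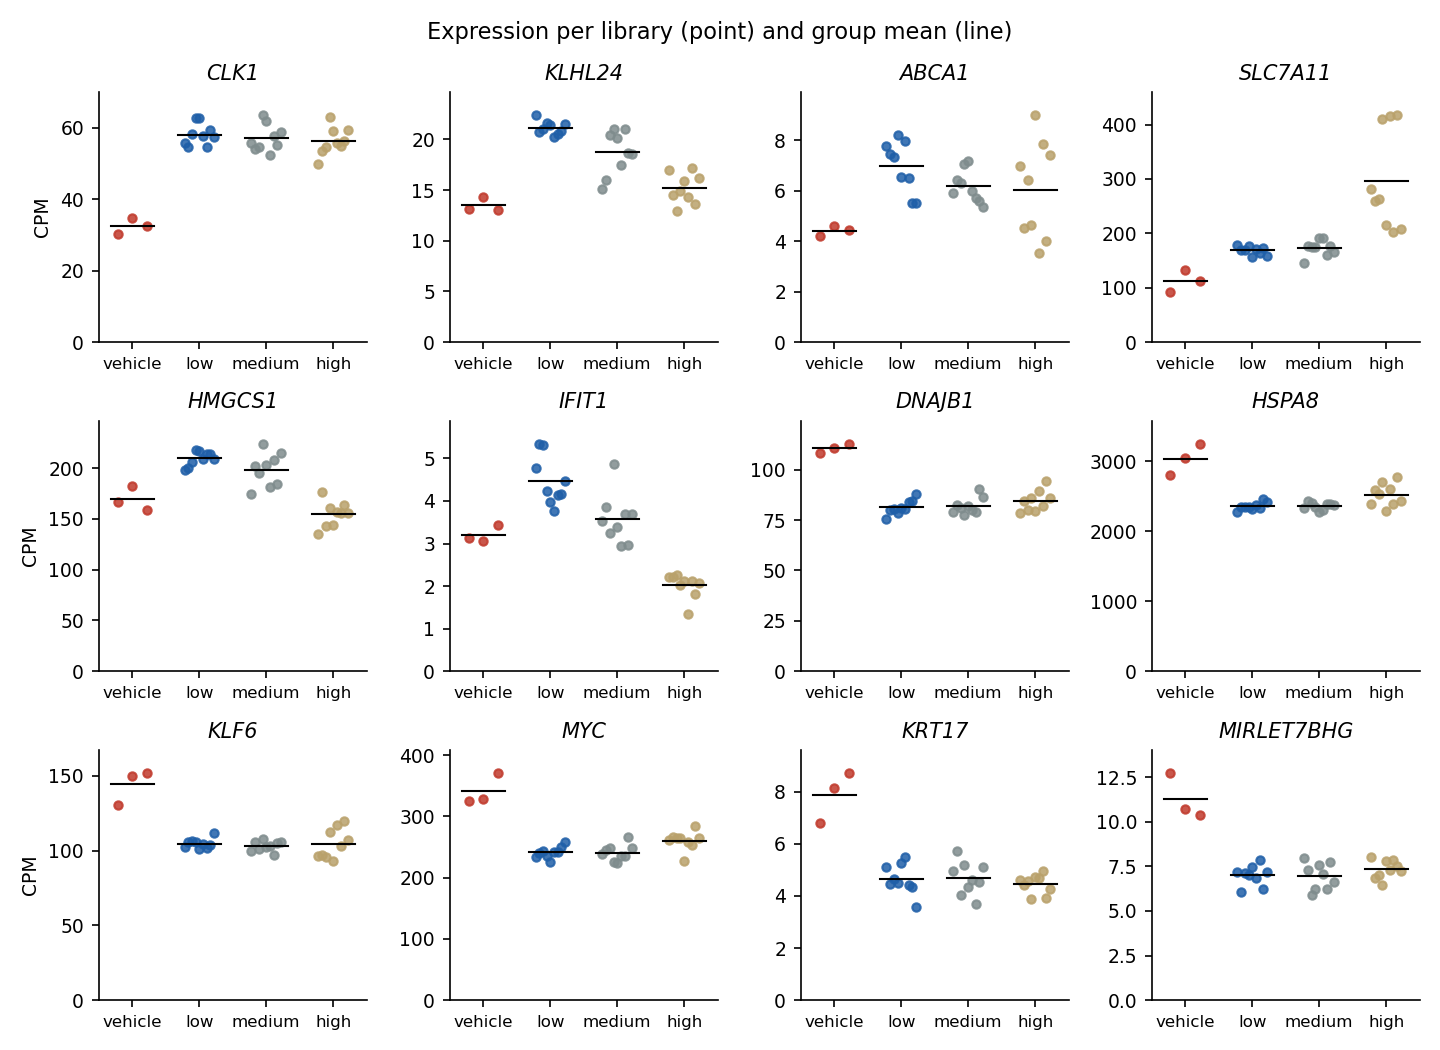
Expression in CPM (vertical axes, from 0) of 12 genes in each of the 30 libraries, in vehicle (red, n = 3), low (blue, n = 9), medium (grey, n = 9) and high dose (tan, n = 9), with a line at each group mean. Low-dose and vehicle points do not overlap in any of the 12 panels; CLK1, DNAJB1, KLF6, MYC, KRT17 and MIRLET7BHG stay near their low-dose level at the higher doses, and IFIT1 does not.

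Among the 15 largest falls, MIRLET7BHG, the host transcript of a let-7 microRNA cluster, was at 12.7, 10.7 and 10.4 CPM in vehicle and 6.03 to 7.87 CPM (median 7.15) at low dose (-0.70 ± 0.079). The basal keratin KRT17 was at 6.8, 8.16 and 8.73 CPM in vehicle and 3.58 to 5.49 CPM (median 4.51) at low dose (-0.76 ± 0.099), with no overlap. KRT7, another keratin, was at 5.3, 2.41 and 2.18 CPM in vehicle and 1.46 to 2.07 CPM (median 1.76) at low dose. Its fall of -0.94 ± 0.21 rested on vehicle replicate 1, since it was -0.38 without that library and did not pass (adjusted p = 0.078). BANP, a factor that binds unmethylated CG-rich promoters, fell by 0.55 ± 0.066 on the log2 scale, and ARID5A, which stabilises inflammatory mRNAs, by 0.59 ± 0.13. LDLRAD2 (-0.64 ± 0.14), CMC4 (-0.62 ± 0.11) and FJX1 (-0.49 ± 0.11) also fell. CBARP (-0.59 ± 0.15) did not pass without vehicle replicate 1 (-0.46), nor with the GC and length trend removed (-0.42). The antisense transcripts CERS6-AS1 (-1.51 ± 0.44) and MIF-AS1 (-0.50 ± 0.11) and the multicopy gene NPIPB13 (-0.88 ± 0.25) are uncertain in their reads. CERS6-AS1 lost its call without vehicle replicate 2 (-1.35) or 3 (-1.32), and NPIPB13 without vehicle replicate 3 (-0.75). Of these 30 largest differences, 28 passed with the GC and length trend removed.

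Of 18 heat shock genes tested, 13 fell, none rose and 5 did not pass, with a median of -0.23, against 12.7% of all genes lower and a median of -0.0054. With the GC and length trend removed the count was again 13 lower and none higher. Leaving out vehicle replicates 1, 2 and 3 in turn gave 14, 11 and 11 lower, and 2 rose without vehicle replicate 2. Many of these genes are textbook targets of HSF1, which binds inverted repeats of a short unit in their promoters, so promoter stretches are shown. The 3 stretches below, from RefSeq on GRCh38.p14, are the 110 bases before the start of the inducible HSP70 gene HSPA1A, of its co-chaperone DNAJB1 (the 1 of 3 starts with a match) and of HSPA8, the constitutive HSP70. Capitals mark GAANNTTC or TTCNNGAA, inverted repeats of that unit, which read the same on both strands and may overlap.
HSPA1A, chr6:31815433-31815542, plus strand: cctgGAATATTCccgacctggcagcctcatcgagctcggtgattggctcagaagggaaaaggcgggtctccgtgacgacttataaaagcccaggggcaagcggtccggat
DNAJB1, chr19:14518398-14518507, minus strand: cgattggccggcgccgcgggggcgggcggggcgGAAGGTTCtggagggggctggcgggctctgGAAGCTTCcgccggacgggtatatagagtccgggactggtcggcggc
HSPA8, chr11:123062137-123062246, minus strand: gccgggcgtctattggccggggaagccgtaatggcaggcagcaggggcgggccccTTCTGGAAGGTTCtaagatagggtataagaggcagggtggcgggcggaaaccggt
Of 17 list genes with a promoter in that table, 11 (64.7%) held either motif in the 250 bases before a start, against 14% of 27305 genes. With a match, HSP90AB1, HSPA4L and HSPD1 did not pass and the others fell. Without one, AHSA1, BAG3, HSPH1 and STIP1 fell, and HSPA4 and HSPE1 did not pass. Whether the motif bears on the falls was not tested. A match is a description of these letters and not a bound site.

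DNAJB1 was at 108, 111 and 113 CPM in the vehicle libraries and at 75.6 to 88 CPM (median 80.7) at low dose, with no overlap (-0.45 ± 0.038, adjusted p = 1.8e-07). HSPA8 was at 2808, 3038 and 3248 CPM in vehicle and 2279 to 2465 CPM (median 2344) at low dose (-0.37 ± 0.038). The low-dose libraries of all 4 formulas lay close together in both genes. HSPA1A was at 282, 309 and 313 CPM in vehicle and 195 to 234 CPM (median 207) at low dose (-0.52 ± 0.045), and HSPA1B at 340.3, 342 and 378 and 245 to 270.2 CPM (median 259) (-0.46 ± 0.035). These 2 genes are near-identical copies, so the division of reads between them is uncertain. The nucleotide exchange factors BAG3 and HSPH1 fell by 0.35 ± 0.045 and 0.30 ± 0.049, and the HSP90 cofactors FKBP4, STIP1, AHSA1 and CHORDC1 were at -0.30 to -0.19. HSP90AA1, the inducible HSP90, was at -0.21 ± 0.066, while HSP90AB1, its constitutive relative, was at -0.043 ± 0.04 and did not pass. The mitochondrial chaperonin genes HSPD1 (0.095 ± 0.04) and HSPE1 (-0.21 ± 0.11) did not pass either.

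Immediate early genes included 10 fallers and no riser among 22 tested, against 12.7% of all genes lower, with a median of -0.22. With the GC and length trend removed 7 fell and 2 rose. MYC, the transcription factor of cell growth, was at 325, 329 and 371 CPM in vehicle and 225 to 258 CPM (median 242) at low dose (-0.51 ± 0.041, adjusted p = 9.8e-08). KLF6, a zinc finger factor, was at 131, 150.2 and 152 CPM in vehicle and 101 to 112 CPM (median 104) at low dose (-0.47 ± 0.04). Both stood apart in every library. DUSP1, the phosphatase that turns off MAP kinases, was at 5.25, 5.62 and 5.73 CPM in vehicle and 3.35 to 4.67 CPM (median 3.65) at low dose (-0.56 ± 0.091). JUN, a subunit of AP-1, fell by 0.29 ± 0.043, and FOSL1, JUND and FOSB, its relatives, were at -0.32 to -0.29. IER3 (-0.34 ± 0.056) and NR4A1 (-0.32 ± 0.095) fell as well. FOS (-0.15 ± 0.06), EGR1 (-0.059 ± 0.098), IER2 (-0.06 ± 0.047) and JUNB (0.0024 ± 0.047) did not pass.

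Of 22 endoplasmic reticulum chaperone and unfolded protein genes, 11 fell, 2 rose and 9 did not pass (median -0.11), against 12.7% of all genes lower and 12.6% higher. With the GC and length trend removed 9 fell and none rose. Counts without vehicle replicates 1, 2 and 3 were 13, 9 and 9 lower and 2, 5 and 1 higher. MANF, a secreted stress protein, was at 36.9, 41.4 and 47.7 CPM in vehicle and 31 to 34 CPM (median 32.6) at low dose (-0.38 ± 0.054). HSPA5, the main chaperone of that compartment, was at -0.19 ± 0.037, the stress factor XBP1 at -0.19 ± 0.032 and HERPUD1, a part of the degradation machinery, at -0.25 ± 0.041. In each of these genes all 9 low-dose libraries lay below all vehicle libraries. CANX (0.13 ± 0.032) and EDEM1 (0.22 ± 0.065) rose. HSP90B1, at -0.046 ± 0.065, did not pass.

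Of 25 mitosis and G2/M genes, 10 fell, none rose and 15 did not pass (median -0.095). Over all genes 12.7% were lower. The count of fallers was 17, 7 and 6 without vehicle replicates 1, 2 and 3, and 12 with the GC and length trend removed, and 2 rose without vehicle replicate 2 and within batch E. PLK1, a mitotic kinase, was at 186, 175 and 200.1 CPM in vehicle and 150.5 to 164 CPM (median 154) at low dose (-0.28 ± 0.037). PTTG1, the securin, fell by 0.29 ± 0.05 and CDC20, the activator of the anaphase-promoting complex, by 0.20 ± 0.032 on the log2 scale. The proliferation marker MKI67 was at 942, 1040.5 and 1144 CPM in vehicle and 957 to 1063 CPM (median 1011) at low dose and did not pass (-0.051 ± 0.044). Of 32 DNA replication genes, 5 rose and 2 fell (median 0.033), against 12.6% and 12.7% of all genes. With the trend removed 9 rose and none fell. The clamp loader subunit RFC3 was at 63.3, 73.8 and 61.8 CPM in vehicle and 77.9 to 83.7 CPM (median 79.8) at low dose (0.27 ± 0.045), and the helicase subunit MCM6 rose by 0.15 ± 0.033. In bulk RNA, fewer cells of a kind and less RNA per cell cannot be told apart.

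Among 25 genes of cholesterol synthesis there were 10 risers, 1 faller and 14 that missed the threshold, with a median of 0.083, against 12.6% of all genes higher. With the GC and length trend removed 15 rose and none fell. HMGCS1, the synthase of an early step of the pathway, was at 167, 182 and 159 CPM in vehicle and 198 to 218 CPM (median 209) at low dose (0.30 ± 0.04). The groups did not overlap, and at the high dose HMGCS1 was back at 135 to 176 CPM. STARD4, a sterol transfer protein, rose by 0.42 ± 0.056, CYP51A1, a demethylase of lanosterol, by 0.18 ± 0.032 and INSIG1, the feedback inhibitor of SREBP2 processing, by 0.27 ± 0.047. PMVK, a kinase of the mevalonate steps, fell (-0.26 ± 0.065). SQLE, the squalene epoxidase (0.0039 ± 0.034), did not pass. Of 9 fatty acid synthesis genes 3 rose and none fell, among them the desaturase SCD, from 1303, 1205 and 1194 CPM in vehicle to 1402 to 1528 CPM (median 1468) (0.24 ± 0.038). With the trend removed the counts were the same, but of the risers only SCD was shared. ACACA (0.070) and ME1 (0.058) then lost their call, and ACLY (0.077) and SREBF1 (0.22) gained one. Of 6 LXR targets, 2 rose, as with the trend removed: ABCA1 as above and ABCG1 (0.46 ± 0.13), a second sterol exporter, which did not pass without vehicle replicate 2 (0.39) or 3 (0.37).

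Of 24 interferon response genes tested, 10 rose, 1 fell and 13 did not pass, against 12.6% of all genes higher (median 0.20), and 10 rose and none fell with the GC and length trend removed. The count of risers was 8, 7 and 5 without vehicle replicates 1, 2 and 3. IFIT1, which binds viral RNA caps, was at 3.14, 3.05 and 3.44 CPM in vehicle and 3.77 to 5.34 CPM (median 4.24) at low dose (0.47 ± 0.11). IFI44 was at 2.16, 3.09 and 2.96 CPM in vehicle and 3.38 to 4.48 CPM (median 3.72) at low dose (0.51 ± 0.12). The RNA sensor IFIH1 rose by 0.33 ± 0.099. IFIT1 and IFI44 were low in HT29 cells, and the groups did not overlap in either. ISG15 (-0.06 ± 0.077) and IFI6 (-0.18 ± 0.12), common markers of the response, did not pass, and IRF7 fell (-0.16 ± 0.055). IFIT1 was at 1.34 to 2.27 CPM at the high dose, below all 3 vehicle values.

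**Figure D4:**
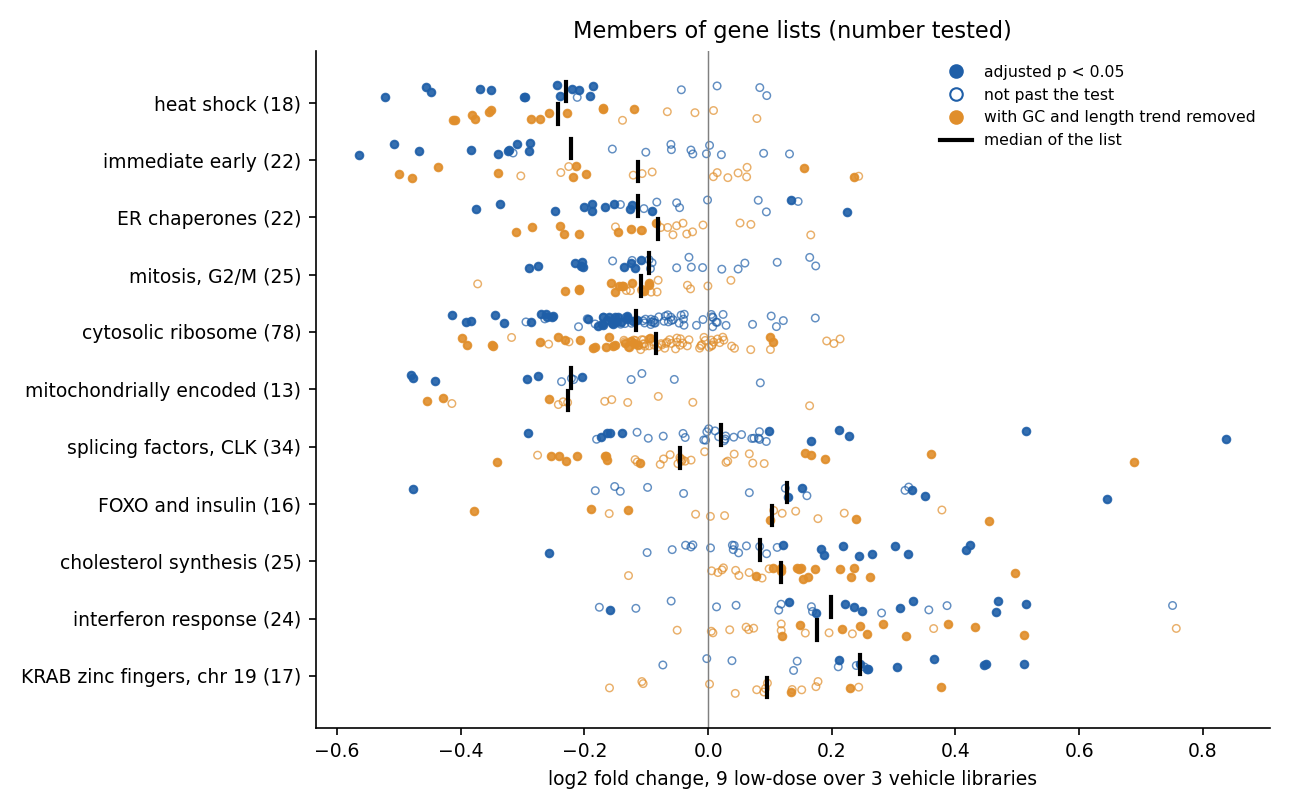
Log2 fold change of low dose over vehicle (horizontal axis) for each member (point) of 11 gene lists, in blue as fitted and in orange with the GC and length trend of each library removed; filled points passed the test, open points did not, and black bars are medians. The heat shock median was -0.23 as fitted and -0.24 with the trend removed, whereas that of KRAB zinc fingers went from 0.25 to 0.096.

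Further lists varied with base composition or with single vehicle libraries. Their background over all genes was 12.6% higher and 12.7% lower. Of 32 KRAB zinc finger genes of chromosome 19, repressors of repeated DNA with AT-rich transcripts (median GC content 37.5%), 17 were tested, and 9 rose and none fell (median 0.25). With the GC and length trend removed 3 rose. ZNF431 was at 9.33, 10.9 and 10.7 CPM in vehicle and 12.6 to 15.2 CPM (median 13.8) at low dose (0.45 ± 0.067; 0.23 with the trend removed), and paralogs of this family can share reads. Of 78 cytosolic ribosomal protein genes, 28 fell and none rose (median -0.12), but the count was 54, 19 and 8 without vehicle replicates 1, 2 and 3, and with the trend removed 20 fell and 2 rose. RPS2 was at 2095, 2155 and 2473 CPM in vehicle and 1821 to 1973 CPM (median 1879) at low dose (-0.26 ± 0.041). Of 73 nuclear respiratory chain genes, 17 fell and 3 rose, with 33, 16 and 3 fallers without vehicle replicates 1, 2 and 3, and 7 with the trend removed. Of 25 ribosome biogenesis genes, 7 fell and 1 rose, with 12, 6 and 6 fallers without those libraries and 4 with the trend removed.

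Of the 13 protein-coding genes of mitochondrial DNA, 6 fell and none rose (median -0.22), against 12.7% of all genes lower. There were 2, 9 and 1 fallers without vehicle replicates 1, 2 and 3, and 3 with the GC and length trend removed. MT-CO1, a subunit of cytochrome oxidase, was at 22849.6, 21574 and 26902 CPM in vehicle and 17424 to 22166 CPM (median 19038) at low dose (-0.27 ± 0.072), and did not pass without vehicle replicate 1 (-0.30) or 3 (-0.18). As a share of each library's counts these genes held 11.8%, 9.95% and 12.1% in vehicle, and 9.1% to 11.5% (median 9.9%) at low dose. The ranges overlap, and the mean difference of -1.16 percentage points gave a two-sided exact permutation p = 0.0909 (n = 9 and 3, adjusted p = 0.0909 over the 5 library measures). It was -1.05 within batch E, with an exact permutation p = 0.167, and -0.915, -1.83 and -0.736 without vehicle replicates 1, 2 and 3, with p = 0.255, 0.0364 and 0.291.

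Stress and xenobiotic genes went both ways. Of 25 NRF2 targets of the antioxidant response, 4 rose and 7 fell, against 12.6% and 12.7% of all genes, and 2 rose and 2 fell with the GC and length trend removed. SLC7A11, the cystine transporter subunit, was at 91.9, 133 and 112 CPM in vehicle and 157 to 178 CPM (median 169.9) at low dose (0.59 ± 0.081; 0.37 with the trend removed). GCLM, the modifier subunit of glutamate-cysteine ligase, rose by 0.34 ± 0.059 (0.20 with the trend removed). Both transcripts are AT-rich, at 35.4% and 37.3% GC. FTH1, the ferritin heavy chain, fell by 0.25 ± 0.052 on the log2 scale and NQO1, a quinone reductase, was at 0.022 ± 0.035 and did not pass. HMOX1, heme oxygenase, fell by 0.23 ± 0.08 (adjusted p = 0.038), a call lost with the trend removed (-0.12), without vehicle replicate 3 (-0.17), within batch E (-0.23) and without any 1 of 5 low-dose libraries (-0.23 to -0.21). Of 10 AHR targets, 3 rose and 2 fell. With the trend removed the counts were the same, but CYP1B1 lost its call (0.25) and AHRR gained one (0.31). CYP1A1, the induced cytochrome P450, was at 0.694, 0.594 and 0.518 CPM in vehicle and 0.364 to 1.43 CPM (median 0.71) at low dose, which overlap (0.36 ± 0.31, not passed). The drug efflux pump ABCG2 was at 62, 64.2 and 63.1 CPM in vehicle and 74.4 to 79.7 CPM (median 77.3) at low dose (0.29 ± 0.034). Of 26 ATF4 targets 3 rose and 5 fell (1 and 3 with the trend removed), and DDIT3, which encodes CHOP, was at -0.19 ± 0.083 and did not pass.

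Of 16 FOXO and insulin response genes, 5 rose and 1 fell (median 0.13), and 3 rose and 3 fell with the GC and length trend removed. Over all genes 12.6% were higher and 12.7% lower, the background for each list of this paragraph. The cyclin gene CCNG2 was at 26.2, 27.2 and 24.6 CPM in vehicle and 30.4 to 35.3 CPM (median 33.5) at low dose (0.35 ± 0.049). DEPP1, which FOXO factors activate, was at -0.48 ± 0.11 and fell. Of 16 p53 targets 4 rose and 3 fell (1 and 2 with the trend removed), and CDKN1A, the cell cycle inhibitor, was at -0.17 ± 0.075 and did not pass. Of 12 NF-kB and chemokine genes 2 fell (1 rose and 2 fell with the trend removed), and CXCL8, a neutrophil attractant, was at -0.20 ± 0.082 and did not pass, though it did with the trend removed (-0.36, adjusted p = 0.0025). TXNIP, a glucose-responsive regulator, was at 52.6, 52.8 and 52.3 CPM in vehicle and 41.4 to 52.1 CPM (median 47.9) at low dose (-0.15 ± 0.053, adjusted p = 0.037), a call lost without any 1 of the vehicle libraries (-0.15, -0.15 and -0.16). Of 18 clock genes 2 rose and 1 fell, with PER2 at -0.025 ± 0.06 and not past the test, and none passed with the trend removed.

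Genes of intestinal identity were read in several lists. Of 8 enterocyte genes tested none rose and 1 fell (median 0.007), and none passed with the GC and length trend removed. The faller, the brush border gene CDHR5 (-0.25 ± 0.071), did not pass without vehicle replicate 1 (-0.19). Of 15 goblet and secretory genes 2 fell and none rose (1 fell with the GC and length trend removed), and MUC2, the main colonic mucin, was at 31, 15.9 and 19.7 CPM in vehicle and 15.6 to 23.9 CPM (median 17.4) at low dose (-0.31 ± 0.19, not passed). REG4, a secretory cell lectin, fell by 0.28 ± 0.059 on the log2 scale. Of 15 epithelial markers 3 keratins fell (1 with the trend removed), among them KRT8 from 6403, 6956 and 7402 CPM in vehicle to 5583 to 6225 CPM (median 5795) (-0.25 ± 0.043). Of 16 WNT targets 3 rose and 5 fell (2 and 3 with the trend removed), against 12.6% and 12.7% of all genes, with the stem cell receptor LGR5 at 0.21 ± 0.046, SOX4 at -0.31 ± 0.043 and the feedback gene AXIN2 at -0.026 ± 0.044, which did not pass. MALAT1, a nuclear long noncoding RNA, was at 919, 912 and 941 CPM in vehicle and 686 to 860.1 CPM (median 758) at low dose (-0.27 ± 0.061), and its fall was -0.41 with the GC and length trend removed. Such RNAs did not fall as a group: of 9 tested, 3 rose and 1 fell (median 0.11), and 1 rose and 1 fell with the trend removed. The largest rises outside the naming rule, singled out after their values were seen, were lincRNA models of chromosome 21. FP236383.3, from 8437629 to 8438551, was at 50.8, 15.8 and 52.3 CPM in vehicle and 120.2 to 172 CPM (median 146) at low dose (1.87 ± 0.28). FP236383.2, from 8393419 to 8394341, had the same 3 vehicle values, so reads are shared between copies and neither value is certain. As lincRNA models, both count toward the lincRNA share given above. How much of the difference in that share they make was not tested.

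Formula by formula, 1608 genes (10.3%) differed from vehicle for Soshiho-tang, 1679 (10.8%) for Yijin-tang and 1577 (10.1%) for Okbyeongpung-san. Higher and lower genes were 5.8% and 4.53% of those tested, 6.04% and 4.76%, and 5.45% and 4.69%. These comparisons share the vehicle libraries. The counts depended on single libraries: they were 816, 833 and 778 without vehicle replicate 3, between 2534 and 2797 without vehicle replicate 1 or 2, and for Okbyeongpung-san 90 and 128 without its replicate 2 and 3. Without 1 of their own replicates 1, 2 and 3 they were 739, 1155 and 551 for Soshiho-tang and 776, 581 and 671 for Yijin-tang. CLK1 rose by 0.88 ± 0.065, 0.84 ± 0.065 and 0.81 ± 0.072 in Soshiho-tang, Yijin-tang and Okbyeongpung-san, and the single Soyo-san library, which has no test, was 0.75 above the vehicle mean. DNAJB1 was at -0.45 ± 0.049, -0.40 ± 0.049 and -0.51 ± 0.056, with Soyo-san at -0.46. KLF6 was at -0.47 ± 0.057, -0.47 ± 0.057 and -0.47 ± 0.065, with Soyo-san at -0.45, and HMGCS1 at 0.33 ± 0.049, 0.33 ± 0.049 and 0.25 ± 0.055, with Soyo-san at 0.24. These genes were picked for groups that do not overlap, which fixes the direction in each formula. In this fit 9, 10 and 9 of 18 heat shock genes, 7, 9 and 4 of 25 cholesterol synthesis genes and 5, 4 and 4 of 24 interferon genes passed in the direction of the pooled test.

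Soshiho-tang and Yijin-tang at low dose, both in batch E, were compared without vehicle. None of 15556 genes passed (edgeR quasi-likelihood test, 0%), 286 had an unadjusted p below 0.05, and DESeq2 gave 0 as well. The median SE of a log2 difference was 0.083, so this does not show that the formulas act alike. CLK1 differed by 0.042 ± 0.063, DNAJB1 by -0.055 ± 0.05 and HMGCS1 by 0.0016 ± 0.049. With no filter on low counts 18 genes passed.

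From the low to the medium dose (100 µg/mL, 9 libraries) 4 of 14923 genes differed (0.0268%), 1 higher (0.0067%) and 3 lower (0.0201%), and 1326 had an unadjusted p below 0.05. The comparison shares the low-dose libraries with the one against vehicle. INSIG1, at 0.27 ± 0.047 against vehicle, was -0.14 ± 0.024 from low to medium dose. AKR1B10, an aldo-keto reductase of the NRF2 set, was -0.17 ± 0.035 against vehicle and 0.16 ± 0.03 from low to medium dose. LZTS3 (-0.33 ± 0.063) and PLEKHB1 (-0.15 ± 0.028) were lower at the medium dose and had not passed against vehicle. Without single libraries the count was 0 to 39; 39 was without Soshiho-tang medium replicate 1, and it was 0 without any 1 of 7 libraries: replicate 3 of Soyo-san medium or low dose, of Okbyeongpung-san low dose, of Soshiho-tang medium dose or of Yijin-tang low dose, and replicate 2 of Yijin-tang medium or low dose. CLK1 differed by -0.025 ± 0.033 and DNAJB1 by 0.012 ± 0.028 between these doses, and neither passed.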

How the data were processed

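Messenger RNA libraries were made from total RNA with a directional kit and read as 100 bp pairs, per the labels' protocols. Values were RSEM expected counts of each gene as deposited, with no scaling across libraries. The submitters' processing notes name RSEM 1.3.3, STAR 2.7.3a, Trim Galore 0.6.5, FastQC 0.11.9 and the build GRCh38. The annotation release and the strand setting of the counting are not given in the sources used here. Of 60675 rows, 56558 identifiers had a symbol and 57055 were in GENCODE release 29, which gave coordinates, GC content and length. Another 30 columns were empty and unnamed. Expected counts divide reads between loci that share sequence, so copies and overlapping genes are less certain.

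Counts were rounded to whole numbers, filtered with filterByExpr (minimum count 10), scaled by TMM and tested with the quasi-likelihood F-test of edgeR 4.0.16 in R 4.3.3, without covariates for low dose against vehicle and with formula as covariate for medium against low dose. The formulas shared a fit of 5 groups over the 12 libraries. P-values were adjusted over all genes by the Benjamini-Hochberg method. Log2 fold changes are given ± SE, and levels in CPM. The SE was derived from the fold change and its F statistic, with the same spread assumed for vehicle and low dose. Vehicle pairs differed more than low-dose pairs (chi-square per degree of freedom 11 to 20.7 against 1.87 to 7.75). The SE and p-values may therefore understate the spread of vehicle. Single library measures were compared by exact permutation tests, of which only that of the mitochondrial share was planned. Library totals of 18.5 M to 36.2 M counts set the precision.

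Named genes were the 15 largest rises and falls past the test with at least 2 CPM, no overlap between groups and an approved-style symbol (no clone name, pseudogene or hyphenated readthrough), up to 4 members per list with the smallest adjusted p, and fixed markers; other list members are given as examples. The members and lists (39 lists, 825 genes) were chosen with earlier results of these data known. Alternatives were DESeq2 1.42.0, other scalings, no filter, equal weights of formulas, the spread of all 30 libraries, batch, thinning to equal depth, a replicate block and leaving out each library, and, added after seeing the data, removal of each library's trend with GC content and length (spline with 5 degrees of freedom). The code was tested on simulated data.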

Additional observations from a re-analysis of the deposited data

Results flagged for a closer look

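In the 9 low-dose libraries, 161 quantities were examined for a library far from the other 8, of which chance would give about 1 in 20, and 11 were found. That is close to the share chance would give. Most quantities were genes named for their values in these same libraries, to which this rate may not apply. In replicate 3 of Yijin-tang the readthrough locus GCOM1 was at 11.95 CPM against 5.91 to 8.88 in the others, KLF6 at 112 against 101 to 106, and DUSP1 at 4.67 against 3.35 to 3.93. KLF6 and DUSP1 are immediate early genes, and that library lay nearest to vehicle in both. In replicate 2 of Okbyeongpung-san the kinase gene CLK4 was at 11.7 CPM against 13.3 to 14.4, the clock repressor gene NR1D2 at 49.9 against 43.8 to 46.6 and the zinc exporter gene SLC30A1 at 45.9 against 41.2 to 42.4. The Soyo-san library had the YAP target CCN2 at 4.66 CPM against 3.49 to 4.04 and the ribosome assembly gene RRS1 at 55.8 against 49.0 to 51.3. Replicate 3 of Okbyeongpung-san had RPL36 at 176 CPM against 157 to 166, replicate 2 of Soshiho-tang had RPS2 at 1973 against 1821 to 1896, and replicate 1 of Yijin-tang had the long noncoding RNA TUG1 at 191 against 198 to 205.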

How the results depend on the processing

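Low dose against vehicle gave 3942 genes, and 3289 to 4374 under other scalings, tests and weights, without the filter, in batch E, with batch as a covariate and after thinning. It gave 2222 with the GC and length trend removed, 2496 with that and the replicate block, and 2504 to 4473 leaving out 1 library. The replicate block alone gave 4185. Replicate numbers are shared only as numbers: deviations of same-numbered libraries correlated at -0.055 to 0.1. Leaving out 1 library gave 551 to 2767 genes for Soshiho-tang, 581 to 2797 for Yijin-tang, 90 to 2742 for Okbyeongpung-san and 0 to 39 for medium against low dose. Medium against low dose gave 176 without the filter, 12 with DESeq2 and 23 with the replicate block, and Soshiho-tang against Yijin-tang 18 without the filter; the cause was not tested. The mitochondrial share differed by -1.83 to -0.736 points and the GC slope by -0.141 to -0.0625 leaving out 1 library.

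Of 150 named genes past the test, 121 passed under every alternative that did not remove the trend; 104 still passed in the same direction with the trend removed, 112 with that and the block; 10, 9 and 21 lost the call without vehicle replicates 1, 2 and 3. Signs turned, leaving out 1 library, for AXIN2 (-0.048 to 0.021), MUC2 (-0.50 to 0.030), PER2 (-0.085 to 0.052) and MKI67 (-0.12 to 0.021), none of which had passed. They turned with the trend removed, and with that and the block, for AXIN2 (0.0092 and 0.022), CDT1 (0.0088 and 0.0065) and CLOCK (-0.024 and -0.023); the cause was not tested. With 3 vehicle libraries that differ among themselves, small differences cannot be resolved.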

Other observations

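Other gene groups held calls in both directions, set against 12.6% of all genes higher and 12.7% lower. Of 27 hypoxia and glycolysis genes 2 rose and 5 fell (median log2 fold change -0.063), and with the GC and length trend removed none rose and 2 fell. The kinase gene PDK1 was at 21.3, 22 and 21 CPM in vehicle and 25.3 to 28.7 CPM at low dose (0.31 ± 0.047), and GAPDH, a glycolytic enzyme, was at -0.19 ± 0.043. Neither passed with the trend removed (0.12 and -0.082). Of 32 proteasome genes 3 rose and 4 fell, and 3 and 5 with the trend removed, but 9, 3 and 0 fell without vehicle replicates 1, 2 and 3. Of 23 lysosome and autophagy genes 1 rose and 3 fell (2 and 1 with the trend removed). The lysosomal regulator TFEB was at 15.2, 15.0 and 13.6 CPM in vehicle and 10.6 to 12.5 CPM at low dose (-0.36 ± 0.063; -0.27 with the trend removed). Of 14 YAP and TEAD genes 1 rose and 3 fell, as with the trend removed: TEAD1, the DNA-binding partner of YAP, was at 0.21 ± 0.029, and the targets CCN2, CCN1 and AMOTL2 at -0.43 ± 0.091, -0.38 ± 0.096 and -0.18 ± 0.044. Of 7 metallothionein and zinc genes 1 rose and 2 fell (1 and 1 with the trend removed). SLC30A1, a zinc exporter, was at 0.39 ± 0.056, and the metallothionein MT1E was at 45.9, 57.5 and 68.1 CPM in vehicle and 38.6 to 45.2 CPM at low dose (-0.43 ± 0.081). Of 11 genes known for nonsense-mediated decay or poison exons 2 rose and 2 fell (1 and 1 with the trend removed). SMG1, the kinase of that decay pathway, was at 246, 263 and 244 CPM in vehicle and 311 to 347 CPM at low dose (0.39 ± 0.036; 0.25 with the trend removed).

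By class of gene, 1801 of 12552 protein-coding genes were higher (14.3%) and 1816 lower (14.5%). Of 421 processed pseudogenes 7 were higher and 44 lower, and their reads can come from parent genes. Of 599 lincRNA genes 38 were higher and 24 lower. Among the extract libraries of all doses, Okbyeongpung-san medium replicate 2 had a GC slope of 0.0211 per 10 points and a length slope of -0.063 per doubling, whereas the other 26 lay at -0.082 to -0.0039 and at -0.017 to 0.02.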
